A study of Mus musculus with 2 samples.

Results

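Complement is a cascade of plasma and cell surface proteins. C1q, lectins or slow spontaneous activation of C3 start it, C3 is the step on which all routes converge, and C5 to C9 end it as a pore in the target membrane. Host cells hold it back with secreted inhibitors and with membrane regulators that take apart the C3-cleaving enzymes or block the pore. The liver makes most plasma complement, while fibroblasts and macrophages make several components locally.

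The genes described here are 8 complement components, regulators and clusterin (Clu, C3, C4b, Cfb, Serping1, Cd55, Cd59a and Cd46), taken by symbol from the 23084 symbols of the deposited expression table. All 8 had a row. They were picked with differences between these libraries in view, so their values are a description and carry no test. Both groups were mouse embryonic fibroblasts of the ICR strain that had taken up the dye calcein with cobalt chloride and were then separated by FACS. The high mPTP opening group, here the high-opening pool, had low calcein fluorescence, and the low mPTP opening group, here the low-opening pool, had high fluorescence. The mPTP is the mitochondrial permeability transition pore. Each group had 1 library. The labels give no genotype, embryo stage or passage, and do not say whether embryos were pooled. Values are FPKM, reads or fragments per kilobase of exon scaled by library depth, and stand on about 16.4 reads in the high and 15.1 reads in the low-opening pool for 1 FPKM of a gene of 1 kilobase. Intervals are exact 95% counting intervals. They leave out variation between cultures and sorts, which 1 library per group cannot show.

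Of the 8 genes, 5 were lower in the high-opening pool by at least 1.5-fold on the log2(FPKM + 1) scale and 0 were higher by that size, beside 3.58% of all listed genes lower and 1.65% higher. Since the genes were chosen on this contrast, nothing is read from that gap. The 5 were Clu, C3, Serping1, Cd55 and Cd59a, while C4b, Cfb and Cd46 lay between the limits. A mean of at least 1 FPKM was reached by the same 5 genes, and C3 reached it through the low-opening pool alone. The median log2 difference over all 8 was -0.66, against -0.03 over all listed genes. In bulk RNA such as this, fewer cells of a type and less RNA per cell cannot be told apart. Clu and C3 were lower by 2-fold or more on that scale, as were 0.775% of all listed genes.

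**Figure D1:**
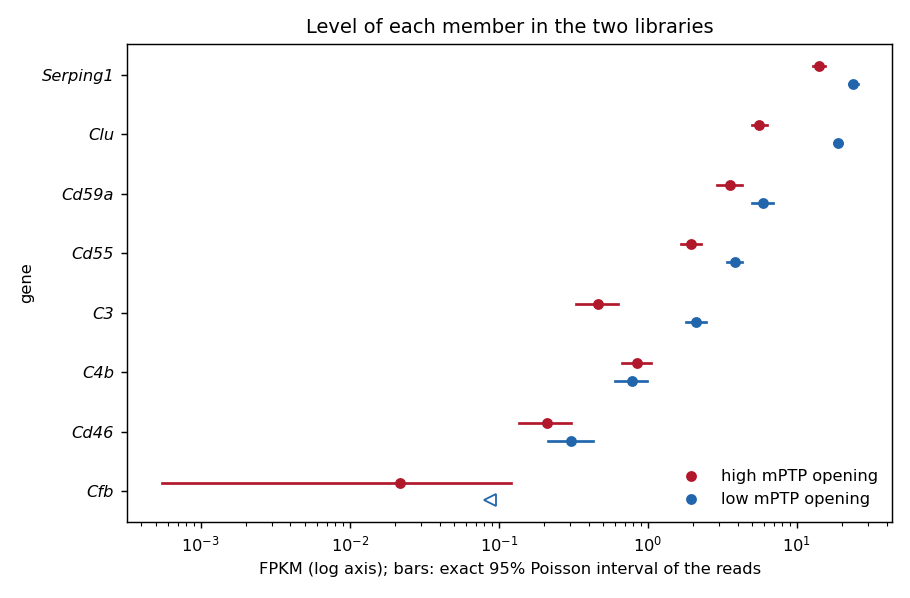
FPKM of the 8 genes (log axis) in the high-opening pool (red) and the low-opening pool (blue), 1 library each, with exact 95% Poisson intervals of the reads as bars. The intervals of both libraries are separate for Clu, C3, Serping1, Cd55 and Cd59a and overlap for C4b, Cd46 and Cfb; the open triangle marks the upper bound for Cfb at 0 reads.

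Promoter sequences of 4 of the 8 genes were found in the RefSeq table (build GRCm38.p6). The 200 bases before the annotated start are shown for the 3 of these genes that were lower by 1.5-fold or more, 5′ to 3′ on the gene's strand, with motif matches in capitals.
C3: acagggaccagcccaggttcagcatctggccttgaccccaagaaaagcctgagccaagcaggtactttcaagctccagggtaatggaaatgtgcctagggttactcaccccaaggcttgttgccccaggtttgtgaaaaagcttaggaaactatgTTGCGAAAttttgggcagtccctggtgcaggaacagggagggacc
Cd55: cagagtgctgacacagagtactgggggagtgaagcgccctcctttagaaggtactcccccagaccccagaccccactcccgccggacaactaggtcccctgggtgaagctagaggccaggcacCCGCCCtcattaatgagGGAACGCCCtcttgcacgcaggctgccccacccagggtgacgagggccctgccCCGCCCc
Cd59a: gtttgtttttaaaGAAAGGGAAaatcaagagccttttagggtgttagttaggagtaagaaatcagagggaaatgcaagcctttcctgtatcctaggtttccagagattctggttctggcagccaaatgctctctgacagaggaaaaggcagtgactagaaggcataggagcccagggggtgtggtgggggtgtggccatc
These windows lie at chr17:57228137-57228336 on the minus strand, chr1:130462745-130462944 on the minus strand and chr2:104095601-104095800 on the plus strand. The motifs searched on both strands were TATAAA, TTGCNNAA for C/EBP, GGGNNTTCC for NF-kB, TTCNNNGAA for STAT, GAAANNGAA for interferon response, GGGCGG for the GC box and CCAAT. The C3 window held 1 C/EBP match, which began 45 bases before the start and which 7.47% of all 32851 promoters held in a window of the same length. In C3 the letters TATAAA began at base 15 after the annotated start, outside the printed window. The Cd55 window held 2 GC box matches, which began 77 and 7 bases before the start and are a motif of 31.0% of promoters. It also held 1 NF-kB match, 60 bases before the start, present in 4.13% of promoters. The Cd59a window held 1 interferon response match, 187 bases before the start, present in 5.57% of promoters. None of these motifs was found in more than 1 of the 3 windows. The matches did not overlap each other. A match is a string of letters and not a measured binding site.

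Clu encodes clusterin, a secreted chaperone also called apolipoprotein J that binds the assembling terminal complex and keeps it out of membranes. The gene (ENSMUSG00000022037) spans bases 65968483 to 65981548 of chromosome 14 in mm10, plus strand. Clu had 5.60 FPKM in the high-opening pool, against 18.8 FPKM in the low-opening pool, from 315 and 974 reads. It was 3.36-fold lower in the high-opening pool (2.96 to 3.83). Among the 11898 measured genes, those whose mean reached 1 FPKM, 33 had a more negative log2 difference than Clu, at -1.59. None of its 50-base transcript stretches occurs in another annotated transcript, and no other annotated gene overlaps its exons.

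Serping1 encodes the C1 inhibitor, a serpin that inactivates the C1r and C1s proteases and also acts on proteases of the MASP family. The gene (ENSMUSG00000023224) lies on chromosome 2, 84765387 to 84775444, minus strand. Its level was 14.1 FPKM in the high-opening pool and 23.9 FPKM in the low-opening pool, the highest of the 8 genes in both. Serping1 was 1.70-fold lower in the high-opening pool (1.52 to 1.89), on 536 and 836 reads. Clu stood at 0.397 times the FPKM of Serping1 in the high and at 0.788 times in the low-opening pool, so these secreted inhibitors were not lower in proportion.

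C3 encodes the central component, whose cleavage releases C3a and leaves C3b on surfaces. The gene (ENSMUSG00000024164) lies on chromosome 17, 57203970 to 57228136, minus strand. C3 had 0.463 FPKM (0.329 to 0.633) in the high-opening pool, against 2.10 FPKM (1.79 to 2.45) in the low-opening pool. These are 39 and 163 reads, a 4.54-fold lower level (3.19 to 6.62). On the untransformed FPKM scale this was the widest ratio among the 7 genes for which a ratio is given, and its interval overlaps that of Clu. On the log2(FPKM + 1) scale the C3 difference of -1.09 is smaller than that of Clu, because the added 1 FPKM weighs more at low levels.

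C4b encodes component C4, which joins C2 in the C3-cleaving enzyme of the classical and lectin routes. Its gene (ENSMUSG00000073418) is in the major histocompatibility region of chromosome 17, 34728380 to 34743882, minus strand. C4b had 0.847 FPKM in the high and 0.781 FPKM in the low-opening pool, on 79 and 67 reads. The ratio of high to low was 1.08 (0.773 to 1.52), which this depth cannot tell from 1. C3 was at 0.547 times the FPKM of C4b in the high-opening pool and at 2.69 times in the low-opening pool, so C3 stood below C4b in the high-opening pool and above it in the low-opening pool. The C4b value is uncertain, since 34.6% of its 50-base stretches also occur in C4a, its neighbour and close copy. C4a was listed at 0.226 FPKM in the high and 0.246 FPKM in the low-opening pool.

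Cfb encodes factor B, the protease of the alternative route, and was at the limit of detection. The table gives 0.0216 FPKM in the high-opening pool, which is 1 read, and 0 in the low-opening pool, where 3 reads would be 0.0705 FPKM. No ratio is given, as both libraries are under 3 reads. The exons of Cfb (ENSMUSG00000090231; chromosome 17, 34856374 to 34862518, minus strand) are shared over 79.5% of their length with the gene Gm20547, and reads in this stretch may not have been assigned to either. The 0.0216 FPKM therefore cannot be read as the absence of factor B transcripts.

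The membrane regulators were lower or not distinguishable. Cd55 encodes decay-accelerating factor, which takes apart the C3- and C5-cleaving enzymes on the cell's own surface (ENSMUSG00000026399; chromosome 1, 130439027 to 130462744, minus strand). Cd55 had 1.95 FPKM (1.66 to 2.28) in the high-opening pool, against 3.83 FPKM (3.40 to 4.31) in the low-opening pool. It was 1.96-fold lower in the high-opening pool (1.61 to 2.41). Of its 50-base stretches 9.12% occur in other genes, mainly in its paralog Cd55b, which had 0 and 1 read in the high and the low-opening pool.

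Cd59a encodes a lipid-anchored protein that stops C9 from completing the pore (ENSMUSG00000032679; chromosome 2, 104095801 to 104115354, plus strand). Cd59a had 3.54 FPKM (2.90 to 4.29) in the high-opening pool, against 5.90 FPKM (5.03 to 6.89) in the low-opening pool, on 105 and 161 reads. This was 1.67-fold lower (1.30 to 2.15). Its log2 difference of -0.60 is just past the 1.5-fold limit of 0.585, and the call was lost in all 3 alternative scalings, at -0.58, -0.57 and -0.58. The paralog Cd59b, 4.6 kilobases away, had 3 reads in each library.

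Cd46 encodes membrane cofactor protein, which helps factor I to cut C3b and C4b (ENSMUSG00000016493; chromosome 1, 195036826 to 195092249, minus strand). In mice Cd46 protein is largely confined to the testis, and Crry, the product of Cr1l, is the broadly expressed regulator with this activity. Cd46 had 0.209 FPKM in the high and 0.306 FPKM in the low-opening pool, on 26 and 35 reads. The ratio of 0.683 (0.395 to 1.17) cannot be told from 1 at this depth. Cd46 also shares 14.2% of its exon length with A330023F24Rik and microRNA genes of the opposite strand, and whether counting used strand is not given. Cr1l, 5.1 kilobases from Cd46, had 4.86 FPKM in the high-opening pool and 5.15 FPKM in the low-opening pool, with a ratio of 0.945 (0.856 to 1.04). Cd55 was at 0.401 times the FPKM of Cr1l in the high and at 0.745 times in the low-opening pool, and Cd59a at 0.728 and 1.15 times. The interval of Cr1l includes 1, whereas the ratios of Cd55 and Cd59a, 0.509 and 0.600, have intervals below 1.

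By level, the order in the high-opening pool was Serping1, Clu, Cd59a, Cd55, C4b, C3, Cd46 and Cfb. In the low-opening pool it was the same apart from C3, which stood above C4b. The counting intervals of neighbours in the order did not overlap in either library, although the spread between cultures is unknown.

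**Figure D2:**
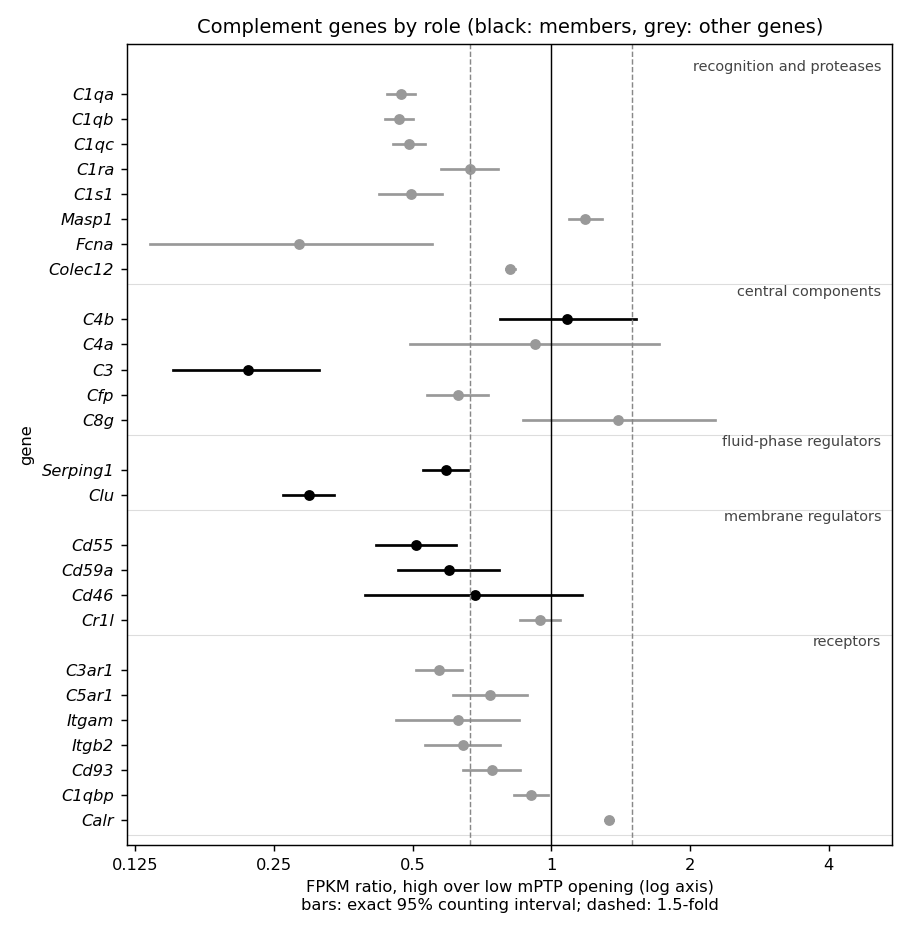
Ratio of FPKM, high over low mPTP opening (log axis), in black for the 8 genes described here except Cfb, which has no ratio, and in grey for further complement genes, with exact 95% counting intervals. Most ratios lie left of 1, those of Clu and C3 furthest among the black points, while C4b, Cd46, C4a, C8g and Cr1l have intervals that include 1.

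The other genes of the cascade were taken from a list of 53, of which 42 had a row and 18 were measured genes. Of these 18, 7 were lower in the high-opening pool by 1.5-fold or more and 0 were higher, against 4.38% lower and 1.54% higher over all 11898 measured genes. Their median log2 difference was -0.45, against -0.02 over all measured genes, and 15 of the 18 had a negative difference. Fcna, one of the 7, and Itgam passed the level filter through the low-opening pool alone. This list, too, was drawn up with results of these libraries known, so nothing is read from that count.

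The recognition subunits and proteases of the classical route held 4 of the 7. C1qa, a chain of the antibody- and surface-binding C1q, had 66.7 FPKM in the high-opening pool and 141 FPKM in the low-opening pool. C1qb, at 65.8 against 141 FPKM, and C1qc, at 29.3 against 59.7 FPKM, had ratios of 0.467 and 0.491, next to 0.472 for C1qa. C1s1, the protease that cuts C4 and C2, had 4.82 FPKM in the high and 9.74 FPKM in the low-opening pool, 2.02-fold lower (1.73 to 2.37). C1ra, the protease that activates C1s, had 6.90 FPKM in the high and 10.4 FPKM in the low-opening pool, a ratio of 0.665 that fell short on the log2(FPKM + 1) scale, at -0.53. C1ra stood at 0.490 times the FPKM of its inhibitor Serping1 in the high and at 0.435 times in the low-opening pool. C1s1 stood at 0.342 and 0.408 times. The interval of the ratio of high to low for C1ra, 0.576 to 0.767, overlaps that of Serping1, 0.528 to 0.658. So does that of C1s1, 0.422 to 0.579, and no change in proportion is read from these values. Masp1, a gene of the MASP family, had a ratio of high to low of 1.19, against 0.590 for Serping1. FPKM per gene does not tell the transcripts of Masp1 apart.

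In the lectin route, Fcna, a ficolin that recognises sugars, had 0.533 FPKM in the high and 1.88 FPKM in the low-opening pool, on 12 and 39 reads (ratio 0.283, 0.135 to 0.552). Colec12, a membrane collectin and the most abundant gene of the lectin list, had 107 FPKM in the high and 131 FPKM in the low-opening pool. Masp1, a protease gene of this route, was on the other side. It had 8.01 FPKM in the high and 6.76 FPKM in the low-opening pool (ratio 1.19, 1.09 to 1.29), short of the limit. In the alternative route, Cfp, or properdin, which stabilises the C3-cleaving enzyme, had 10.3 FPKM in the high and 16.4 FPKM in the low-opening pool, 1.60-fold lower (1.37 to 1.86). The only measured gene of the terminal route was C8g, at 1.92 FPKM in the high and 1.38 FPKM in the low-opening pool, with an interval of the ratio of 0.867 to 2.27.

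Of 7 measured receptors, 1 was lower by 1.5-fold or more and 0 were higher, beside 4.38% lower and 1.54% higher over all measured genes. Nothing is read from so small a count. C3ar1, the receptor for C3a, had 7.06 FPKM in the high-opening pool and 12.4 FPKM in the low-opening pool, 1.75-fold lower (1.56 to 1.96). Itgam and Itgb2, the chains of complement receptor 3, had ratios of 0.627 and 0.643. Vsig4, a macrophage receptor for C3b with a mean under 1 FPKM, had 3 reads in the high and 33 reads in the low-opening pool, a ratio of 0.0836 (0.0164 to 0.267). Calr, calreticulin, an endoplasmic reticulum chaperone that also binds C1q, was on the other side, at 530 FPKM in the high and 398 FPKM in the low-opening pool (ratio 1.33, 1.31 to 1.36), short of the limit.

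**Figure D3:**
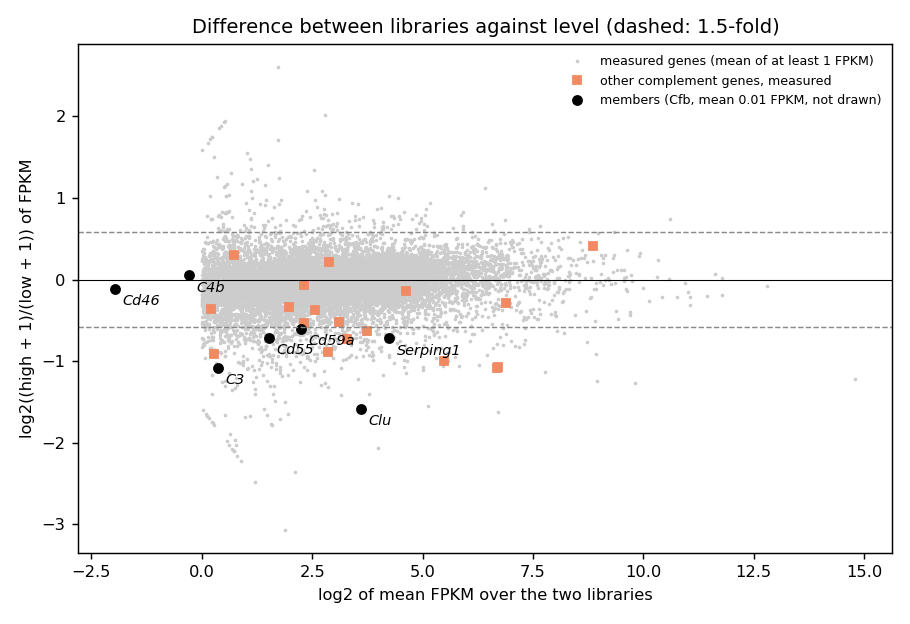
Log2 difference, log2((high + 1)/(low + 1)) of FPKM, against log2 of the mean FPKM for measured genes (grey), 18 other complement genes (orange) and the 8 genes described here except Cfb (black). Clu, at -1.59, lies apart from most genes of its level, and C4b and Cd46 lie near 0.

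Receptors that bind or take up clusterin differed in both directions. Of 5 measured, 1 was past the limit on each side, beside 4.38% lower and 1.54% higher over all measured genes. With so few genes, nothing is read from these counts. Plxna4, which was not past the limit, passed the level filter through the low-opening pool alone. Trem2, a myeloid receptor, had 2.85 FPKM in the high and 6.01 FPKM in the low-opening pool, 2.11-fold lower (1.80 to 2.48). Lrp8, a lipoprotein receptor, had 2.60 FPKM in the high and 1.26 FPKM in the low-opening pool, 2.06-fold higher (1.74 to 2.45). Lrp1, the most abundant of them, had 124 FPKM in the high and 130 FPKM in the low-opening pool. The genes nearest to Clu in both libraries, by Euclidean distance of log2(FPKM + 1), were the chemokine Ccl12 (distance 0.261), the cathepsin gene Ctsf (0.314), Mir1898 (0.448) and Gm25772 (0.452). With 2 libraries such likeness says only that these genes had like levels in both. Ccl12 had 6.60 FPKM in the high and 16.7 FPKM in the low-opening pool, and Ctsf had 7.08 FPKM in the high and 20.4 FPKM in the low-opening pool. Mir1898 and Gm25772 rest on 10 and 5 reads in the high and on 19 and 22 reads in the low-opening pool.

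Markers of macrophages, mesothelium, and Schwann cells and glia were lower in the high-opening pool, as Clu and C3 were, while the summed level of fibroblast markers was not. Over all measured genes, 4.38% were lower by 1.5-fold or more. Fibroblast markers were abundant, with a summed level of 6156 FPKM over 8 genes in the high-opening pool and 5991 FPKM in the low-opening pool, which fits the labelled cell type, and 2 of 8, Dcn and Lum, were lower by 1.5-fold or more. Col1a1 alone, at 3204 FPKM in the high and 3059 FPKM in the low-opening pool, made up most of the fibroblast sum. That sum therefore says little about the other fibroblast markers. Macrophage markers were lower by that size in 13 of 16 genes, with a summed level of 410 FPKM in the high and 793 FPKM in the low-opening pool, a ratio of 0.517, and none was at 0. Mesothelial markers were lower in 7 of 8, with sums of 20.5 and 46.8 FPKM in the high and the low-opening pool (ratio 0.439). The 3 measured Schwann cell and glia markers, Sox10, S100b and Cdh19, were lower, but each passed the level filter through the low-opening pool alone, so that count supports nothing. The 8 of this list with a row summed to 1.94 FPKM in the high and 12.4 FPKM in the low-opening pool (ratio 0.155). The 5 endothelial markers summed to 1.95 FPKM in the high and 2.38 FPKM in the low-opening pool. Of these, Kdr alone was measured, at 1.01 FPKM in the high and 1.09 FPKM in the low-opening pool. The others had means under 1 FPKM and differed in both directions. Emcn was higher, at 0.542 FPKM in the high and 0.110 FPKM in the low-opening pool. Tek was lower, at 0.311 FPKM in the high and 0.916 FPKM in the low-opening pool. Pecam1, on 2 and 9 reads, and Cdh5, on 5 and 11 reads, were lower too, but the interval of Cdh5 includes 1. Of the adipocyte markers, Lpl alone was measured, at 3.95 FPKM in the high and 7.24 FPKM in the low-opening pool. Hepatocyte markers, of which 2 of 6 had a row, were at or near 0, with a sum of 0.0755 FPKM in the high-opening pool and 0 in the low-opening pool. The ratios of Clu, at 0.297, and C3, at 0.220, lay below the ratios of the macrophage and mesothelial sums and above that of the Schwann cell and glia sum. Those of Serping1, Cd55 and Cd59a, at 0.590, 0.509 and 0.600, were close to or above the macrophage ratio and above the other 2. The part of these cell types in the levels of the 8 genes and of the other complement genes was not tested.

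**Figure D4:**
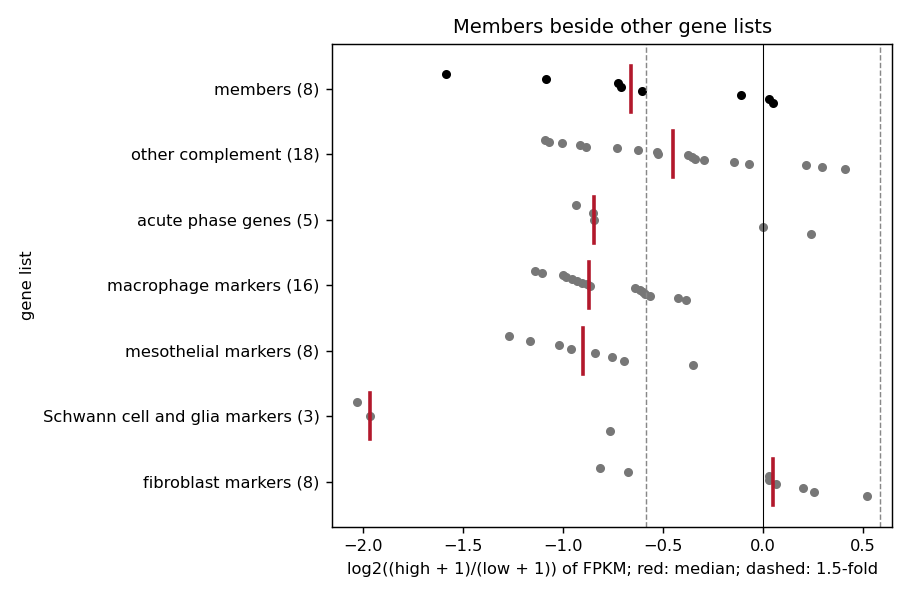
Log2 difference, log2((high + 1)/(low + 1)) of FPKM, of each gene in 7 lists, all 8 genes described here and the measured genes of the others, with the number of genes in parentheses and the median as a red bar. The median is -0.66 for the 8 genes, -0.87 for macrophage, -0.90 for mesothelial and -1.96 for Schwann cell and glia markers, all 3 of which passed the level filter through the low-opening pool alone, and 0.05 for fibroblast markers.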

How the data were processed

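The deposited file is 1 table in which the authors give FPKM for each Ensembl gene with its symbol and position. Both columns were matched to the libraries by name. The submitters' processing notes name the build mm10 with Bowtie2 2.2.3 and TopHat2 2.0.12. How reads were counted, on which annotation and whether by strand is not given in the sources used here. RNA was taken with Trizol and libraries with a TruSeq kit, per the labels' protocols.

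FPKM times exon length (GENCODE M21) came out as whole reads within 0.05 reads for 93.4% of genes of up to 20 reads in the high and 93.1% in the low mPTP opening library. This gave denominators of 16375713 and 15060416 reads or fragments. Over all genes above 0 FPKM the share was lower, at 85.5% in the high and 85.7% in the low mPTP opening library. The recovered reads summed to 18063768 and 16609259, above the denominators, which are therefore not the total of reads over genes. Clu came out whole only with 1 base added to its M21 exons, as its deposited position is 1 base longer, and its reads were rounded. PCR copies are not independent molecules, so intervals (exact Clopper-Pearson for ratios, exact Poisson for levels) cover counting error only.

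Rows of 1 symbol were summed. Differences are log2((high + 1)/(low + 1)) of FPKM, which understates differences of low genes. Ratios are of FPKM itself. With 1 library per group no test was made. The genes and lists were chosen with earlier results of these data known. Genes named beside the 8 were the measured list genes past 1.5-fold (at most 4 a list), paralogs, the most abundant gene of each list and the 4 genes nearest to Clu. C1ra, Masp1, Itgam, Itgb2, Vsig4, Dcn, Lum, Emcn, Tek, Pecam1, Cdh5, Plxna4, Saa3 and Il6 were chosen after their values were seen. Shared sequence was sought as 50-base stretches in GENCODE M21 transcripts, in both directions. The letters searched for NF-kB and interferon response were shortened after matches to longer forms had been seen. A gene of the complement list and a gene of the marker lists are not reported here. Scripts were tested on simulated data. Alternatives were other pseudocounts, scalings, filters, size limits and list membership. Computation used SciPy 1.17.1, pandas 2.3.3 and NumPy 2.4.6 under Python 3.11.15, and plots matplotlib 3.10.9.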

Additional observations from a re-analysis of the deposited data

How the results depend on the processing

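Under the alternatives, Clu lay between -1.73 and -1.17, C3 between -1.97 and -0.38 and Serping1 between -0.76 and -0.60 on the log2 scale. Each of the 8 genes kept the sign of its difference, but this supports nothing, since these settings could not change it. Pseudocounts and filters cannot turn a sign, and the 3 scalings raised every log2 ratio of FPKM itself by 0.124 at most. For Cfb the sign rests on 1 read against 0. The count of the 8 genes lower by 1.5-fold or more changed from 5 to 2 under a 5 FPKM pseudocount, to 2 when only genes with a mean of 5 FPKM or more counted, and to 2 under a 2-fold limit. It was 4 in each of the 3 scalings, where Cd59a fell just short. The pseudocount of 5 FPKM brought their median to -0.35, and a filter at a mean of 5 FPKM, which leaves Clu and Serping1, gave -1.15. For the other complement genes, the count of lower genes changed from 7 to 4 under the 5 FPKM pseudocount and to 3 under the 2-fold limit, and the median was -0.09 with no filter, since genes near 0 FPKM enter it. A pseudocount of 5 FPKM shrinks differences of genes at low levels by construction. Scaling to a sum of 1000000 raised every log2 ratio of FPKM itself by 0.124, but also enlarged all values beside the pseudocount, so that on the log2(FPKM + 1) scale C3 was at -1.56 against -1.09, Cd55 at -0.76 against -0.71 and Cd46 at -0.19 against -0.11. A mean of at least 1 FPKM for the 8 genes, added after seeing the data, left the count at 5. Depth limits Cd46, C4b and C8g, whose intervals include 1. The interval of Cd46, 0.395 to 1.17, also holds a 1.5-fold lower level. Those of C4b, 0.773 to 1.52, and C8g, 0.867 to 2.27, do not, but they hold a 1.5-fold higher level. Cfb is limited by its reads and by the exons it shares with Gm20547. No paired analysis was possible because each group had 1 library.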

Other observations

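Acute phase genes, which share inducers with complement genes, were lower in part. Of 5 measured, 3 were lower in the high-opening pool by 1.5-fold or more, beside 4.38% of all measured genes. With so few genes, nothing is read from that count, and Lbp, one of the 3, passed the level filter through the low-opening pool alone. A2m, a broad protease inhibitor, had 1.00 FPKM in the high and 2.82 FPKM in the low-opening pool (2.82-fold lower, 2.26 to 3.53). Lbp, which presents lipopolysaccharide to its receptors, had 0.796 FPKM in the high and 2.23 FPKM in the low-opening pool (2.80-fold lower, 2.08 to 3.80). Serpina3n, a serpin, had 8.31 FPKM in the high and 15.8 FPKM in the low-opening pool (1.90-fold lower, 1.63 to 2.2). Ptx3, a pentraxin that binds C1q and the most abundant of this list, had 26.8 FPKM in the high and 22.5 FPKM in the low-opening pool. Saa3, with a mean under 1 FPKM, had 1 read in the high and 28 reads in the low-opening pool (ratio 0.0328, 0.000803 to 0.199).

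Among genes that induce or transmit induction of complement genes, 2 of 14 measured were lower by 1.5-fold or more and 0 were higher, beside 4.38% lower and 1.54% higher over all measured genes. With so few genes, nothing is read from that count, and Tnf, one of the 2, passed the level filter through the low-opening pool alone. Tnf, a cytokine, had 0.931 FPKM in the high and 3.12 FPKM in the low-opening pool, on 25 and 77 reads. Cebpb, a transcription factor of acute phase genes, had 1.58 FPKM in the high and 2.91 FPKM in the low-opening pool, on 39 and 66 reads (1.84-fold lower, 1.22 to 2.81). Il6, with a mean under 1 FPKM, had 0.402 FPKM in the high and 0.875 FPKM in the low-opening pool. These are 16 and 32 reads, a ratio of 0.460 (0.236 to 0.863). Il6st, the shared receptor chain of this cytokine family and the most abundant of the list, had 80.8 FPKM in the high and 66.1 FPKM in the low-opening pool. Macrophage markers summed to 410 FPKM in the high and 793 FPKM in the low-opening pool, and their part in these values was not tested.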
